A study of Mus musculus with 11 samples.

Results

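The actomyosin and SRF target genes described here are 10 genes chosen by symbol, of 29955 gene symbols in the RNA-seq of im-scWAT cells, and all 10 were found. im-scWAT cells are preadipocytes of mouse inguinal subcutaneous white adipose tissue that were immortalized with SV40 large T antigen, so 1 cell line stands for the preadipocyte in all 11 samples. A time course of 6 untransduced samples covered days 0, 4 and 8, with 1 sample per day labelled plus and 1 labelled minus for rosiglitazone (ROS), a PPARγ ligand used at 0.5 μM. Cells were induced at day 0 with indomethacin, dexamethasone, IBMX, insulin and T3, and ROS was given from day 0 in the plus samples only, so both day 0 samples were preadipocytes before treatment. The other 5 samples were taken at day 8 with ROS and all carried an shRNA against mouse Jmjd1a together with a retroviral, LTR-driven human JMJD1A. JMJD1A is a histone H3K9 demethylase. Its form was wild type in WT A and WT B, S265A (serine changed to alanine), S265D (to aspartate) or S265D-H1120Y (with the catalytic histidine changed as well), with 1 sample for each mutant form. The labels and the methods differ on whether ROS was withdrawn for the last day before day 8.

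Actin filaments, the myosin II motor and tropomyosin form the stress fibres with which adherent cells pull on their surroundings. When G-actin is used up by filament assembly, its partner MKL1 (MRTF-A) is released, enters the nucleus and activates SRF at CArG boxes of cytoskeletal genes, while the YAP and TAZ coactivators act through TEAD factors on Ctgf and Cyr61 in the same stretched cells. Preadipocytes are spread, fibroblast-like cells, and rounding of the cell with loss of stress fibres is a known step of adipogenesis.

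The members fall into 3 roles. Acta2 (smooth muscle α-actin), Tagln (transgelin, an actin-bundling protein), Cnn1 (calponin, which binds actin and restrains myosin), Myl9 (a regulatory light chain of myosin II), Tpm1 and Tpm2 (tropomyosins) encode parts of the contractile filament. Srf and Mkl1 encode the transcription factor and its actin-regulated coactivator. Ctgf and Cyr61 encode secreted matricellular proteins of the CCN family. The value used for each was the FPKM over the exons of its representative coding transcript on the sense strand, in mm9. These transcripts lie at chr19:34315581-34329826 (Acta2), chr9:45737711-45744141 (Tagln), chr9:21903697-21913665 (Cnn1), chr2:156601200-156607393 (Myl9), chr9:66875697-66897020 (Tpm1), chr4:43527584-43536260 (Tpm2), chr17:46683788-46693111 (Srf), chr15:80842711-81021187 (Mkl1), chr10:24315248-24318488 (Ctgf) and chr3:145309935-145312949 (Cyr61). Tpm1 is listed with 12 transcripts, Tpm2 and Mkl1 with 3 each, Cnn1 with 2 and the other 6 genes with 1.

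The RefSeq promoter table (GRCm38.p6, 250 bases before to 50 bases after a start) held 9 promoters of 8 members, and Tagln and Ctgf were not matched. It was searched for the CArG box, read as CC, then 6 bases of A or T, then GG, which has the same form on both strands. Srf, which is known to activate its own gene, had 2 such boxes and Myl9 had 1, against 535 of all 32851 promoters (1.63%) with any. With 1 mismatch allowed, 5 of the 8 members had a match, against 21.1% of all promoters. The short TEAD-type motif GGAATG, on either strand, was found in Acta2, Tpm1 and Cyr61 and in 14.7% of all promoters. The promoters of Srf and Myl9 are shown because they hold the full box. That of Acta2, which has no full box, is shown as well, with 2 matches that each have 1 mismatch. Capitals mark these matches, which begin 82 and 62 bases before the start in Srf, 161 bases before it in Myl9, and 84 and 34 bases before it in Acta2. The sequences run 5′ to 3′ from chr17:46556113-46556412 (minus strand), chr2:156775214-156775513 (plus strand) and chr19:34255324-34255623 (minus strand), all GRCm38.p6.
Srf: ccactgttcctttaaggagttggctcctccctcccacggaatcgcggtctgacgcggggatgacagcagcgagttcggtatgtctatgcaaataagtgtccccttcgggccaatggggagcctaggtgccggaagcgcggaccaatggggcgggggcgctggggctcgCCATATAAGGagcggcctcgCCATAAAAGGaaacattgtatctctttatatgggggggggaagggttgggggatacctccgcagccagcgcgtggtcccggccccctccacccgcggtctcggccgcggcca
Myl9: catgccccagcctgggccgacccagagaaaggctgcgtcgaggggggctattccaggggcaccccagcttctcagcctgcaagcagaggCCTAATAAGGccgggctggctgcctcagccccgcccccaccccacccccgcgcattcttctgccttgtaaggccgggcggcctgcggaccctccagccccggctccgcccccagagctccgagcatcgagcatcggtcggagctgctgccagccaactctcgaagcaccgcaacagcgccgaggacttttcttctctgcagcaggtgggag
Acta2: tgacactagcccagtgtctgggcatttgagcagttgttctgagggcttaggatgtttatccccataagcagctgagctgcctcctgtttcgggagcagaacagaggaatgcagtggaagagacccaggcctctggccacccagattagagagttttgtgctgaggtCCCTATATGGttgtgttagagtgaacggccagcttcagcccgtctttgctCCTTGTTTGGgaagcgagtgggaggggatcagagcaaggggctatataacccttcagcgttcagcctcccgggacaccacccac

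Depth went from 3.10 to 5.29 Gb of mapped bases per sample, and 100 mapped bases on 2 kb of exon would give an FPKM of 0.00944 to 0.0161, so every member other than Cnn1 stood far above the lowest measurable level. WT A and WT B stood apart from each other, with 16.4% of 15837 genes at least 2 times higher in WT B, so each result on the transduced cells is given for both. The 2 day 0 samples were far closer, with 1.94% of 15030 genes at most 0.5 times as high in the plus as in the minus sample. Kdm3a, the mouse gene for JMJD1A, was at an FPKM of 13.0 to 28.5 in the sh-mJmjd1a samples and of 15.1 to 23.2 in the untransduced ones, so these ranges overlapped. Reads from the human cDNA were not separated from it here. Adipocyte markers (Pparg, Cebpa, Fabp4, Plin1, Adipoq, Lpl, Cd36, Lipe) rose in 8 of 8 at day 4 and day 8 against day 0, and their summed FPKM went from 285 and 287 at day 0 to 9912 to 35091 at days 4 and 8. Of 10 smooth muscle and pericyte markers, 6 reached an FPKM of 1 in some sample, and Myocd was at 0 in all 11. At day 0 Smtn (smoothelin, which binds actin), at 20.3 and 20.4, made up most of their summed FPKM, and Myh11 was at 0.00653 and 0.0226. Of 8 skeletal muscle markers, 6 stayed under 0.1 in all samples, and Myod1, Myog, Ckm and Myh4 were at 0 throughout. The other 2, Acta1 and Des, reached 19.3 and 12.2 in WT B.

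The contractile genes were high in preadipocytes and fell steeply by day 4. Acta2 was at an FPKM of 139.6 and 131 at day 0 (ROS minus, then plus), 10.7 and 2.52 at day 4, and 12.6 and 4.43 at day 8. The lowest day 0 sample was 10.4 times the highest later untransduced or transduced sample. On log2(FPKM + 0.1), the scale of all differences below, Acta2 fell by 4.67 ± 0.73 (SE) at day 4 and by 4.16 ± 0.73 at day 8 (limma with Benjamini-Hochberg adjustment, adjusted p = 0.00532 and 0.00611, n = 2 samples per day). Fewer cells of a type and less RNA per cell cannot be told apart in bulk samples.

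Tagln had an FPKM of 27.8 and 23.6 at day 0, 1.94 and 0.646 at day 4, and 5.31 and 1.73 at day 8. Its day 4 and day 8 samples overlapped each other and none reached day 0. It fell by 4.38 ± 0.63 at day 4 and by 3.03 ± 0.63 at day 8 (limma adjusted p = 0.00404 and 0.0108). Cnn1, the least abundant member, was at 4.85 and 4.12 at day 0, at 0.193 and 0.0595 at day 4, and at 0.138 and 0.157 at day 8. Its day 0 mean was 35.5 times its day 4 mean, and its fitted differences of -4.40 ± 0.36 and -4.21 ± 0.36 are made smaller by the added 0.1 (limma adjusted p = 0.000583 and 0.000577). Myl9 was at 42.6 and 36.4 at day 0, 9.35 and 2.82 at day 4, and 11.8 and 3.40 at day 8. It had the largest adjusted p of the members, 0.0225 at day 4 and 0.0263 at day 8, for differences of -2.91 ± 0.71 and -2.61 ± 0.71 in limma. Its ROS plus and minus samples lay far apart on both days.

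Of the tropomyosins, Tpm1 had the larger fitted fall, and whether it differed from that of Tpm2 was not tested. Tpm1, the most abundant member, was at an FPKM of 425 and 390.5 at day 0, 31.5 and 24.9 at day 4, and 40.8 and 14.7 at day 8, with differences from day 0 of -3.86 ± 0.44 and -4.05 ± 0.44 (limma adjusted p = 0.00195 and 0.00136). Tpm2 was at 129 and 115 at day 0, 32.7 and 30.1 at day 4, and 39.0 and 22.5 at day 8, with differences of -1.95 ± 0.25 and -2.03 ± 0.25 (limma adjusted p = 0.00289 and 0.00206). Both genes are used for filaments in muscle and in other cells. Among the 12 Tpm1 transcripts the day 0 mean was 10.1 to 14.7 times the day 8 mean, and among the 3 of Tpm2 it was 3.91 to 3.95 times, but transcripts of a gene share most exons and their values are not independent.

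**Figure D1:**
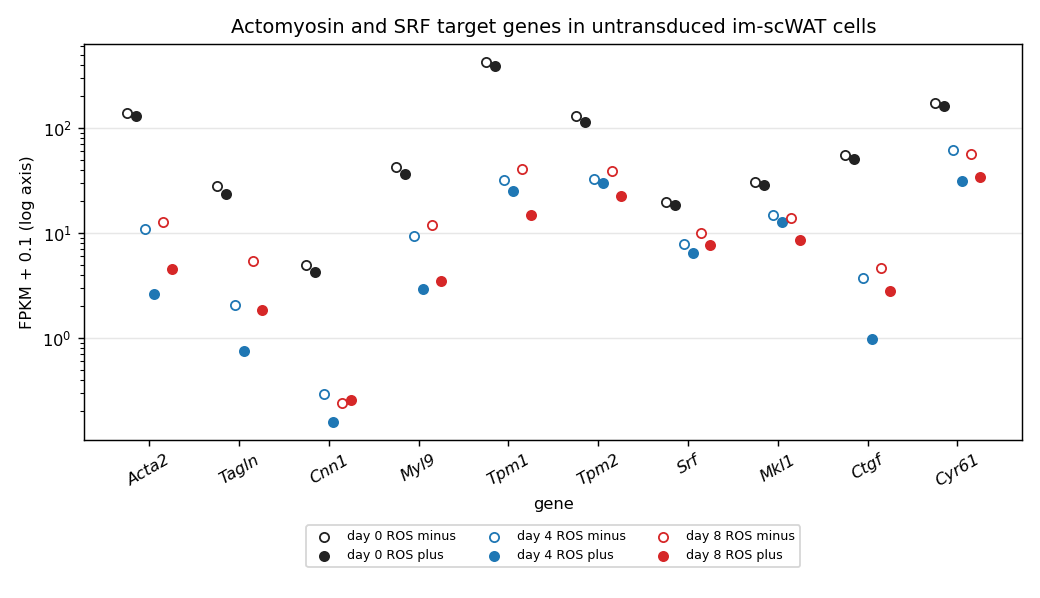
FPKM + 0.1 (log axis) of the 10 genes in the 6 untransduced samples, 1 point per sample, with open points for ROS minus and filled points for ROS plus. All 10 genes have both day 0 points above the 4 points of days 4 and 8, and the filled points lie under the open ones at day 4 in all 10 genes and at day 8 in every gene but Cnn1.

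Srf and Mkl1, the regulators, had smaller fitted falls than most contractile genes. Srf was at an FPKM of 19.7 and 18.5 at day 0, 7.71 and 6.41 at day 4, and 9.96 and 7.57 at day 8, with differences from day 0 of -1.43 ± 0.18 and -1.13 ± 0.18 (limma adjusted p = 0.00270 and 0.00462). Mkl1 was at 30.4 and 28.6 at day 0, 14.7 and 12.7 at day 4, and 13.8 and 8.41 at day 8, with differences of -1.11 ± 0.24 and -1.44 ± 0.24 (limma adjusted p = 0.0150 and 0.00501). Neither gene overlapped between day 0 and the later days. The day 0 mean was 2.71 times the day 4 mean for Srf and 2.16 times for Mkl1, against 20.4 times for Acta2. Whether the fall of Acta2 or another contractile gene was larger than that of Srf or Mkl1 was not tested.

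Of the CCN genes, Ctgf had the larger fitted fall, and whether it differed from that of Cyr61 was not tested. Ctgf was at an FPKM of 55.1 and 50.5 at day 0, 3.64 and 0.881 at day 4, and 4.50 and 2.71 at day 8, with differences of -4.79 ± 0.61 and -3.88 ± 0.61 (limma adjusted p = 0.00262 and 0.00414). Cyr61 was at 174 and 162 at day 0, 61.0 and 31.3 at day 4, and 56.7 and 34.0 at day 8, with differences of -1.94 ± 0.36 and -1.93 ± 0.36 (limma adjusted p = 0.00934 and 0.00748). Cyr61 was the most abundant member in each of the 4 later untransduced samples, where Ctgf stayed under 5.

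At day 4 limma called 10 of 10 members lower than at day 0, where 3056 of 16400 genes (18.6%) were called lower and 3381 higher. At day 8 it called 10 of 10 lower, where 3883 genes (23.7%) were lower and 4023 higher. The median difference of the members was -3.38 at day 4 and -2.82 at day 8, and that of all genes was 0.01 and -0.03. Both comparisons share the day 0 samples. In 10 of 10 members both day 0 samples were above all 4 later untransduced samples, as they were in 30.8% of the 16400 genes. Leaving out a day 0 sample leaves 1 there, which is assumed to vary like the other days. Fewer of the 10 members were then called by limma at day 4 and at day 8. Without the ROS plus sample of day 0 the Acta2 difference at day 4 was -4.71, and without the ROS minus sample it was -4.62. The direction was lower in all 10 under every sample left out.

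**Figure D2:**
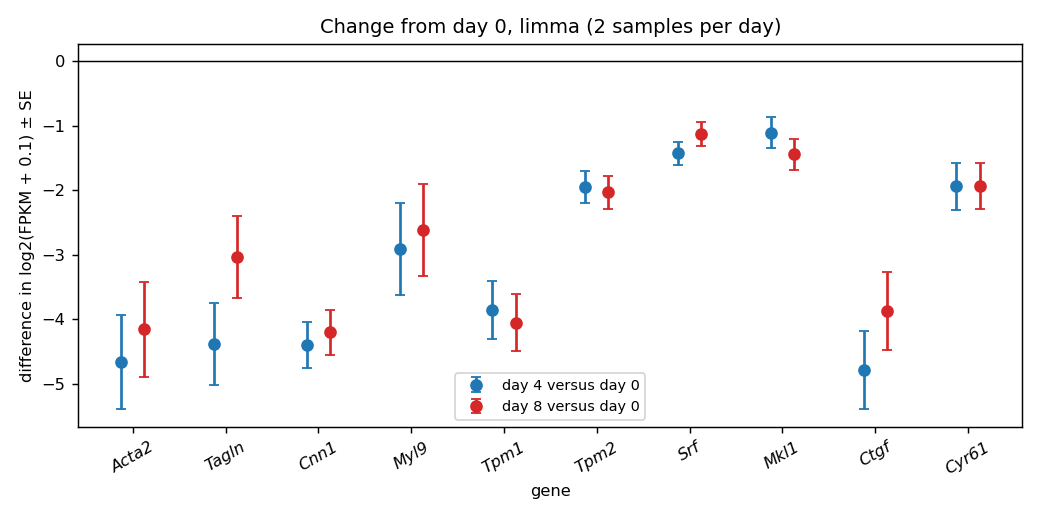
Differences in log2(FPKM + 0.1) from day 0 at day 4 and day 8 for the 10 genes, with bars of 1 SE from limma over 2 samples per day. Acta2, Tagln, Cnn1, Tpm1 and Ctgf lie at -3 or below on both days, and Srf, Mkl1, Tpm2 and Cyr61 between -1 and -2.1.

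Between day 4 and day 8 limma called 0 of 10 members, where 73 of 16400 genes (0.445%) were called in either direction, and 0 of 10 had an unadjusted p under 0.05. The members' differences went from -0.34 for Mkl1 to 1.35 ± 0.63 for Tagln (limma adjusted p = 0.266), with a median of 0.25. With ROS added as a term, 1 member was called, Tagln, which was then higher at day 8 than at day 4 (limma adjusted p = 0.0200), beside 8.47% of all genes in either direction. Without the ROS minus sample of day 8 it called 3 members, Tpm1, Tpm2 and Mkl1, as lower at day 8, beside 18.1% of 16174 genes in either direction.

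The relatives of the members moved unevenly. The counts by family include the members, and those without them follow in each case. They stand beside 18.6% of all genes called lower at day 4 and 23.7% at day 8. Of the 16400 genes, 3381 and 4023 were called higher. Of the 6 actin genes, 4 fell at each day (3 of 5 without Acta2), among them Actb and Actg1, the cytoplasmic actins, with differences of -1.99 ± 0.30 and -2.25 ± 0.27 at day 8 (limma adjusted p = 0.00384 and 0.00189). Acta1, the skeletal muscle actin, rose by 2.08 ± 0.36 at day 8 (limma adjusted p = 0.00567), from an FPKM of 0.239 and 0.253 to 1.44 and 1.27. Acta2 was 4.28% and 4.30% of the summed actin FPKM at day 0 and 0.426% to 1.48% at days 4 and 8. All 4 tropomyosin genes fell on both days, 2 of them no members, with differences of -1.75 ± 0.23 for Tpm4 and -1.98 ± 0.33 for Tpm3 at day 8 (limma adjusted p = 0.00227 and 0.00489). Tpm1 went from 32.1% and 33.0% of the summed tropomyosin FPKM at day 0 to 7.59% to 12.0% later, while Tpm4 went from 31.9% and 34.1% to 41.3% to 52.8%. Actin genes are near-identical in their coding parts and the alignment could split reads between them, so their shares are uncertain.

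**Figure D3:**
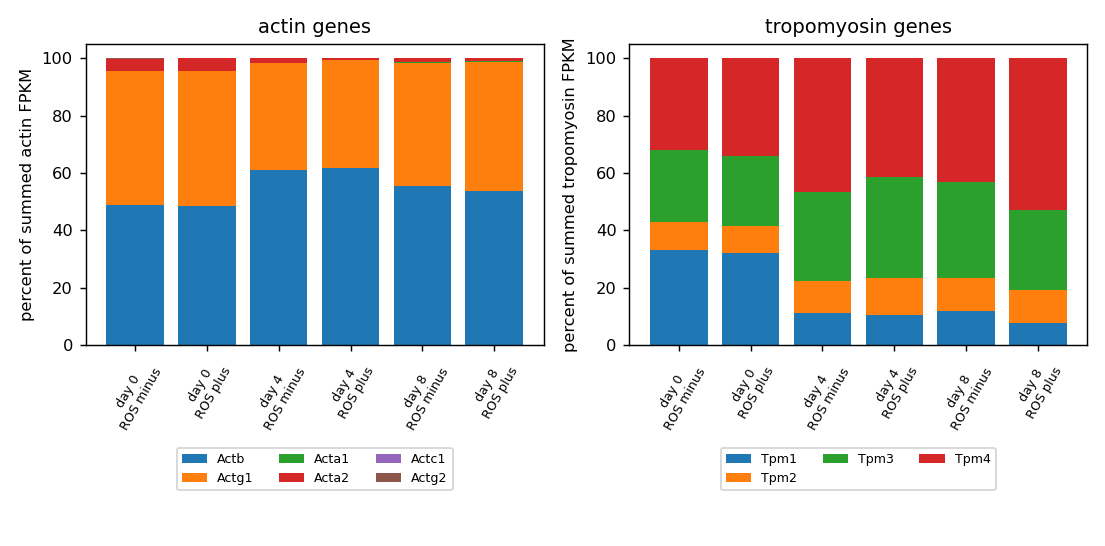
Shares of the summed FPKM of 6 actin genes (left) and 4 tropomyosin genes (right) in the 6 untransduced samples, in percent. The Tpm1 share is near 32% to 33% in both day 0 samples and at most 12.0% later, and the Acta2 share drops from near 4.3% to at most 1.48%.

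Of 8 measured genes for myosin II chains and light-chain kinase, 3 fell and 3 rose at each day (2 and 3 of 7 without Myl9), with differences of -1.35 ± 0.19 for Myl6 (essential light chain) and -1.61 ± 0.26 for Myh9 (nonmuscle heavy chain) at day 4 (limma adjusted p = 0.00356 and 0.00597), while the light chain Myl12b differed by -0.60 ± 0.22 (adjusted p = 0.0766). Of 21 genes of actin-binding and stress-fibre proteins, 13 fell and 2 rose at day 4, and 14 fell and 2 rose at day 8. Without Tagln and Cnn1, 11 and 12 of 19 fell. Flna (filamin A, an actin crosslinker) and Tagln2 fell, with differences of -2.07 ± 0.42 and -1.07 ± 0.16 at day 8 (limma adjusted p = 0.00940 and 0.00356). Actn4, a crosslinking α-actinin, differed by -0.31 ± 0.14 (adjusted p = 0.105).

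Among 9 measured genes for SRF and its partners, 6 fell and 0 rose on either day (4 of 7 without Srf and Mkl1), with a median of -1.11 at day 4 and -1.26 at day 8. Fhl2, an SRF cofactor and target, fell by 2.77 ± 0.60 at day 8 (limma adjusted p = 0.0121). Elk1, a ternary complex factor and partner of SRF, differed by 0.14 ± 0.16 on that day (limma adjusted p = 0.495). Of the 9 immediate-early targets of SRF, 3 were lower and 1 was higher at day 4, with a median of -0.28, and 2 were lower and 1 was higher at day 8, with a median of 0.01. At day 8 neither share was above that of all genes. Egr1, a zinc finger factor, fell by 1.33 ± 0.31 at day 4 (limma adjusted p = 0.0199). At day 8 Ier2 rose by 0.82 ± 0.17 (limma adjusted p = 0.0101), while Mcl1 and Egr1 differed by 0.01 ± 0.12 and -0.10 ± 0.31 (adjusted p = 0.947 and 0.813). Whether the lists differed from each other was not tested. Of 14 measured YAP, TAZ and TEAD genes and targets, 9 fell and 0 rose at day 8 (7 of 12 without Ctgf and Cyr61), including Axl (a receptor kinase) and Amotl2 (a YAP-binding scaffold), with differences of -2.48 ± 0.54 and -0.93 ± 0.14 (limma adjusted p = 0.0123 and 0.00336). All 5 measured CCN genes fell on both days, 3 of them no members, among them Wisp2 by 1.93 ± 0.37 at day 8 (adjusted p = 0.00795).

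Markers of preadipocytes and fibroblasts were mixed, with 5 of 8 lower and 1, Pdgfra, higher on each day. Their summed FPKM was 2760 and 2939 at day 0 and 533 to 1199 at days 4 and 8. At day 8 Vim, the intermediate filament of mesenchymal cells, fell by 2.21 ± 0.20 and Col1a1 by 2.22 ± 0.56 (limma adjusted p = 0.000703 and 0.0208). Pdgfra rose by 1.10 ± 0.35 (limma adjusted p = 0.0411), and Ly6a was not called (-0.97 ± 0.65, adjusted p = 0.253). Ly6a was at 484 and 424 at day 0 (ROS minus, then plus) and at 495 and 108 at day 8. The part of preadipocytes and fibroblasts in the fall of the members was not tested. Smooth muscle and pericyte markers did not fall as a list, with 1 lower and 4 higher of 8 measured on each day and summed FPKM of 24.8 to 24.9 at day 0 and 24.0 to 40.6 later. Mcam (a surface adhesion protein) and Des (desmin) rose by 3.35 ± 0.14 and 3.89 ± 0.28 at day 8 and Smtn fell by 2.38 ± 0.50 (limma adjusted p = 5.43e-05, 0.000360 and 0.0109). Endothelial markers summed to at most 1.08 in the untransduced samples, with Tie1 at 0 at day 0. In the transduced samples they summed to 1.04 to 4.07, mostly from Pecam1. Macrophage and leukocyte markers summed to 7.93 and 8.19 at day 0 and to 1.82 to 5.00 at untransduced days 4 and 8. Their sum was 6.29 to 22.7 in the transduced samples. Emr1 and Ptprc were at 0 in all 11 samples. Cd68, the marker of this list with the highest mean over the 11 samples, was at 0.541 to 4.30 in the untransduced samples and 5.00 to 21.7 in the transduced ones. At day 0 Cd14 was higher, at 5.42 and 5.56 against 2.18 and 2.43 for Cd68 (ROS minus, then plus). Of the 3 measured genes of this list, limma called 3 lower at day 4 and 2 at day 8. The mesothelial list summed to 60.9 and 65.3 at day 0, nearly all from the keratin Krt19, with Lrrn4 at 0 in both, and to 0.124 to 1.18 at days 4 and 8. Of its 3 measured genes, 2 were lower on each day, Krt19 with differences of -8.12 ± 0.40 and -6.61 ± 0.40 and Msln (mesothelin) with -4.79 ± 0.26 and -3.17 ± 0.26 (limma adjusted p = 0.000116, 0.000196, 0.000155 and 0.000502). The part of such cells in the fall of the members was not tested.

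The ROS plus value was lower than the ROS minus value in 10 of 10 members at day 4 and in 9 of 10 at day 8, with 1 sample against 1. It was also lower in 10 of 10 at day 0, and the share of all genes that were lower in the plus sample was not counted. At day 4, 5 members had a ROS plus value at most 0.5 times the minus value, against 4.51% of 15246 genes, and these were Acta2 (0.235 times), Ctgf (0.242), Myl9 (0.302), Cnn1 (0.308) and Tagln (0.333). At day 8 the 4 members past this cutoff were Myl9 (0.288), Tagln (0.325), Acta2 (0.351) and Tpm1 (0.360), against 15.2% of 15536 genes. At day 0, before treatment, 0 of 10 members passed it and the ROS minus sample was 1.06 to 1.18 times the plus sample in all 10. Each ratio compares 1 sample with 1 sample and has no replicate check.

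Acta2, Tagln and Myl9 were the members past the cutoff on both days. Srf was at 0.831 and 0.760 times and Mkl1 at 0.863 and 0.609 times the ROS minus level at days 4 and 8. Cyr61 was at 0.512 and 0.600 times and Tpm2 at 0.921 and 0.577 times. Cnn1 was lower with ROS at day 4 only, and at day 8 it was at 1.14 times, with every FPKM under 0.2.

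**Figure D4:**
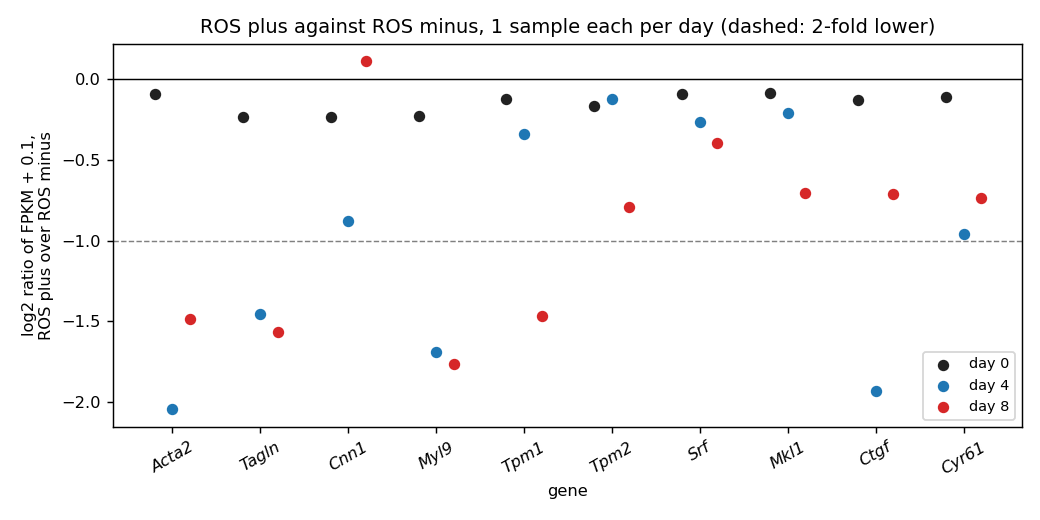
Log2 ratio of FPKM + 0.1 in ROS plus over ROS minus for the 10 genes at days 0, 4 and 8, 1 ratio of single samples per point, with a dashed line at 2-fold lower. The day 0 points lie close under 0 in all 10 genes, and Acta2, Tagln and Myl9 lie under the dashed line at both later days.

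In a fit with 1 ROS term over days 4 and 8, limma called 0 of 16400 genes (0%), with a smallest adjusted p of 0.0981, which belonged to Myl9. At an unadjusted p under 0.05 there were 3260 genes (19.9%), among them 9 of the 10 members. All 10 members had a negative difference, with a median of -0.88 against -0.13 over all genes. The differences were -1.77 ± 0.16 for Acta2, -1.73 ± 0.13 for Myl9, -1.51 ± 0.16 for Tagln, -1.32 ± 0.28 for Ctgf and -0.85 ± 0.11 for Cyr61 (limma adjusted p = 0.105, 0.0981, 0.105, 0.140 and 0.105). Those of Tpm1, Mkl1, Tpm2, Cnn1 and Srf were between -0.90 and -0.33. Adipocyte markers had a summed FPKM of 33064 with and 23685 without ROS at day 4 and of 35091 and 9912 at day 8, mostly from Fabp4, a fatty acid carrier, which was at 29590 and 20694 and at 31402 and 7631. Of these 8 markers, 6 were higher with ROS at day 4 and 7 at day 8, Pparg was lower on both days, and limma called 0 of 8. Preadipocyte markers summed to 558 and 700 at day 4 and to 533 and 1199 at day 8, with 8 of 8 lower with ROS on each day and 0 of 8 called by limma. The part of the cell mixture in the ROS difference was not tested.

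In the transduced samples, all at day 8 with ROS, each member was below both day 0 samples. Some values lay outside the range of the untransduced day 4 and day 8 samples. Ctgf in WT B and S265D, at 6.58 and 8.62, was above its highest value there, 4.50. Cyr61 and Tpm2 in WT A, at 5.24 and 8.02, were under their lowest values there, 31.3 and 22.5. Acta2 was at an FPKM of 6.27 in WT A, 4.79 in WT B, 4.58 in S265A, 4.77 in S265D and 4.54 in S265D-H1120Y, so that the 3 mutant forms lay just under the WT pair. Srf was at 5.31 to 7.18 and Mkl1 at 6.16 to 8.42 over the 5 samples, with a highest value 1.35 and 1.37 times the lowest. Myl9 was at 2.73 to 4.95 and Tpm1 at 20.4 to 37.7. Cnn1 was at most 0.132 and was at 0 in S265D-H1120Y.

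The WT pair itself differed most in the secreted genes. Ctgf was at an FPKM of 0.890 in WT A and 6.58 in WT B, 7.38 times higher, and at 3.20 in S265A, 8.62 in S265D and 0.683 in S265D-H1120Y. Cyr61 was at 5.24 in WT A and 62.3 in WT B, 11.9 times higher, and at 30.1, 46.4 and 20.5 in the mutant forms in that order. Tpm2 was at 8.02 in WT A and 40.3 in WT B, 5.03 times higher, and at 23.8, 29.9 and 29.9. All mutant values of Cyr61 and Tpm2 thus lay between WT A and WT B. These 3 members, of 9 compared, were at least 2 times higher in WT B, beside the 16.4% of all genes. The summed FPKM of preadipocyte markers was 529 (WT A) and 1395 (WT B) with 8 of 8 lower in WT A, and that of adipocyte markers 15177 and 29520. The second sum was mostly Fabp4 (12393 and 26902), and 5 of the 8 adipocyte markers were higher in WT A. The part of these cells in the difference between the WT samples was not tested.

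**Figure D5:**
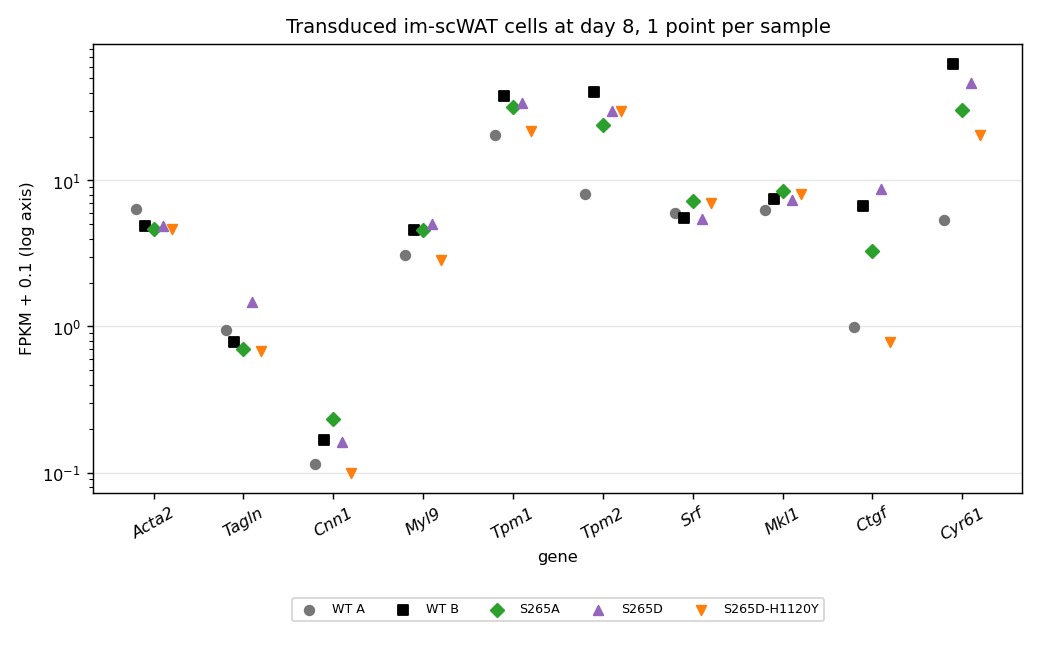
FPKM + 0.1 (log axis) of the 10 genes in the 5 transduced samples at day 8, 1 point per sample. WT A lies far under WT B for Tpm2, Ctgf and Cyr61, and the 5 points of Acta2, Srf and Mkl1 lie close together.

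In S265A, 0 of 10 members were at most 0.5 times the WT mean, as 7.55% of 16051 genes were. Ctgf and Cyr61 were at 0.487 and 0.483 times WT B, but both were above WT A, at 3.59 and 5.73 times. In S265D 1 of 9 members, Ctgf, was at least 2 times the WT mean, at 2.31 times, beside 4.02% of 16089 genes. It was 9.68 times WT A and 1.31 times WT B. Tpm2 and Cyr61 were at 3.73 and 8.84 times WT A but at 0.741 and 0.745 times WT B. Tagln was at 1.63 times WT A and 2.02 times WT B. Its FPKM was 1.38 in S265D, and the WT values were 0.847 (A) and 0.683 (B).

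S265D-H1120Y compared with S265D was lower by at least 2-fold in 3 of 9 members, Ctgf (0.0793 times), Tagln (0.416) and Cyr61 (0.442), beside 8.66% of 15760 genes. Tagln was then at an FPKM of 0.574, under both WT samples, and Ctgf at 0.683, under WT A. Srf and Mkl1 were at 1.30 and 1.11 times and Tpm2 at 1.00 times. Adipocyte markers summed to 25505 in S265D and 15922 in S265D-H1120Y, with 8 of 8 lower in the latter, and preadipocyte markers to 1200 and 761, with 6 of 8 lower, and their part was not tested.

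limma, which had only the WT pair for the spread between samples, called 0 of 16402 genes (0%) for S265A against WT, S265D against WT and S265D-H1120Y against S265D, with every adjusted p at 1 and with 73, 77 and 146 genes at an unadjusted p under 0.05, none of them members. For Ctgf the differences were 0.36 ± 1.45, 1.76 ± 1.45 and -3.48 ± 1.67, so the 12.6-fold range over the 5 samples was not separated from the spread of the WT pair. For Acta2 they were -0.25 ± 0.46, -0.20 ± 0.46 and -0.07 ± 0.53. With 1 residual degree of freedom these intervals are wide and do not show that the forms of JMJD1A acted alike.

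Over the 11 samples, the genes most like Acta2, Srf and Cyr61 were sought among 12416 genes with a mean FPKM of at least 1, by the root mean square difference of their centred log2 profiles. Nearest to Acta2 were Tm4sf1 (0.544), a tetraspanin-like membrane protein, the member Tagln (0.553) and Ncs1 (0.568), a neuronal calcium sensor. Nearest to Srf were the transcripts AK218261 (0.110) and AK203176 (0.114) and Pfn1 (0.155), the actin monomer-binding profilin. Pfn1 was at an FPKM of 678 and 622 at day 0 and 257 to 344 at days 4 and 8. Nearest to Cyr61 were BC028528 (0.385), Clip3 (0.393) and Plat (0.402), the tissue plasminogen activator. Plat shared with Cyr61 the low WT A value, with 2.22 against 10.6 in WT B. Within the set, the closest pair was Srf and Mkl1 (0.283) and the most distant was Srf and Ctgf (1.56).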

How the data were processed

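The 11 RNA-seq samples were grouped by their labels. The authors mapped reads of TruSeq libraries against the UCSC genes and the mm9 genome with Burrows-Wheeler aligner, kept the better of both mappings, added a local realignment, and deposited an FPKM per transcript and strand that rests on mapped bases. The deposited files also give the log10 and the log2 of the FPKM, and the mapped bases as a signal or coverage column, from which the depth was worked out. Mapped bases allow no test for counts.

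Each symbol was represented by the sense row that the files mark as representative, and genes that reached an FPKM of 0.1 in any sample of a fit were tested. limma (version 3.58.1, R 4.3.3; lmFit, then eBayes with trend, two-sided) was run on log2(FPKM + 0.1) with Benjamini-Hochberg adjustment over all genes at 0.05. The 6 untransduced samples were fitted by day, so ROS plus and minus counted as the 2 samples of a day, and p-values measure only that spread. The ROS term was 0 at day 0. The transduced fit used 5 samples. Nothing in the labels says that WT A and WT B came from separate cultures. Cutoffs of 2-fold were applied to FPKM without a pseudocount. Tables were made with Python 3.11.15, pandas 2.3.3 and numpy 2.4.6, and figures with matplotlib 3.10.9. The limma script was tested on simulated data. Alternatives changed the pseudocount, the minimum FPKM, the transcript, the scaling, the model terms and the samples.

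Named were all members, defining markers at 0, and the 3 genes most like Acta2, Srf and Cyr61. The 3 genes of each related list with the highest mean FPKM were also named, but of some marker lists only part of these 3. Any other gene was named after its values were seen. The members and lists were chosen with earlier results of these data known. Of the listed symbols, Myl12a and Ajuba were not matched in the files. Results of 1 further gene list are not reported here.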

Additional observations from a re-analysis of the deposited data

Results flagged for a closer look

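From day 4 to day 8, 4 members moved in opposite directions with and without ROS, and since each condition had 1 sample the difference was not tested. Tpm1 went from 24.9 to 14.7 with ROS and from 31.5 to 40.8 without it, so that the change in log2(FPKM + 0.1) with ROS minus the change without it was -1.13. Tpm2 went from 30.1 to 22.5 with ROS and from 32.7 to 39.0 without it, a difference of -0.67. For Cyr61 the difference was 0.23, with changes of 0.12 with ROS and -0.11 without it. For Cnn1 it was 0.99, between FPKM values that were all under 0.2.

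The antisense rows were not used in the comparisons. Antisense FPKM at Tagln reached 1.23 in WT A, above the sense value of 0.847 in that sample and above the highest antisense value of 0.522 at day 0. The last 65 bases of Tagln overlap Pcsk7, which lies on the other strand in the mm9 annotation. Antisense FPKM at Cnn1 reached 0.0407 in WT B, against 0.0216 at day 0.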

How the results depend on the processing

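With all samples kept, the 8 settings that changed the pseudocount, the minimum FPKM, the transcript, the scaling or the model left 80 of 80 member values lower and called at day 4, and 80 of 80 at day 8, against day 0. With 1 sample left out, 60 of 60 were lower on each day and 43 and 45 were called. The members called then went from 2 to 10 at day 4 and from 3 to 10 at day 8. The genes called lower went from 547 to 4519 and higher from 1094 to 4416 at day 4, and lower from 909 to 5383 and higher from 1732 to 4504 at day 8. Between days 4 and 8 the result depended on the setting: 0 to 3 members, 0 to 1713 genes lower and 0 to 1213 higher with 1 sample left out. The genes lower and higher were 29 with a pseudocount of 1 (lower), 8 and 30 with 0.01, 1 and 10 with no minimum FPKM, 12 with the highest transcript (lower), 34 with median-ratio scaling (lower), and 640 and 749 with a ROS term, which also gave 1 member, and 6 and 30 with the ROS label of the series as a block. With 1 sample left out, the day 8 against day 4 differences ran from -0.52 to 1.53 for Acta2, -0.24 to 0.63 for Cnn1, -0.58 to 1.18 for Myl9, -0.93 to 0.54 for Tpm1, -0.48 to 0.31 for Tpm2, -0.69 to 0.018 for Mkl1, -0.057 to 1.87 for Ctgf and -0.47 to 0.49 for Cyr61, and the cause was not tested. The highest transcript turned Tpm2 to 0.078 there and to -0.20 for S265D-H1120Y against S265D. For ROS, 128 of 130 member values stayed negative, 0 were called, and Cnn1 ran from -0.88 to 0.11. Leaving out a WT sample gave 0 to 2 members past 2-fold for S265A and 1 to 3 for S265D, and the share of all genes was not counted there. No paired analysis was possible because the labels number no untransduced sample, other than by the ROS label. That label as a block over days 0, 4 and 8, chosen after seeing the data, called 10, 10 and 0 members for the 3 comparisons of days, as without it. Depth limits only Cnn1.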
